A study of Mus musculus with 12 samples.

Results

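Aminoacyl-tRNA synthetases are described here in sorted blood progenitor cells of the mouse. They are the enzymes that join each amino acid to its transfer RNA (tRNA). The members were the protein-coding genes of the deposited table whose symbol is an amino acid's letter code followed by "ars" and, where present, a suffix. This rule found 37 of the 54532 genes in the table. All 37 passed the filter on low counts, as did 15003 genes in all. The members were split into 20 cytosolic and 17 mitochondrial enzymes, the latter having symbols that end in 2. Tarsl2 ends in 2 as well but encodes a cytosolic threonyl enzyme, and it was counted with the cytosolic genes. Kars and Gars each make both the cytosolic and the mitochondrial form of their enzyme from 1 gene and were counted as cytosolic. Eprs, the fused glutamyl and prolyl enzyme, is not matched by the rule and is described only as a partner of the multisynthetase complex.

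RNA came from bone marrow sorted for Lin-cKit+ cells, which carry cKit and lack the surface markers of mature lineages; the cells were fresh and not cultured. All mice were on a C57BL/6 background and carried the Mx1-cre transgene, a recombinase driven by an interferon-inducible promoter. The WT groups were Dnmt3a+/+ and the RH groups Dnmt3a fl-R878H/+, a heterozygous change in a de novo DNA methyltransferase gene. Vehicle (VEH) or metformin (MET), a drug that inhibits respiratory complex I, was given for 1 month in an in vivo competition experiment. There were 3 libraries in each of the 4 groups, named WT VEH and WT MET for the wild type, RH VEH and RH MET for the mutant. The labels give 2 animals per treatment group, tie no library to an animal and give no ages, and therefore each p-value here reflects library-to-library variation, some of which may be technical. They also do not say whether competitor or host cells remained in the sorted fraction. In bulk RNA, fewer cells of a type and less RNA per cell cannot be told apart.

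The cytosolic enzymes supply charged tRNAs to the ribosomes of the cytoplasm. Several of them are held together in the multisynthetase complex, with the scaffold proteins encoded by Aimp1, Aimp2 and Eef1e1, while the others are free. A separate set, encoded in the nucleus and imported, charges the tRNAs of the mitochondrial genome, whose few messages encode subunits of the respiratory chain. Many cytosolic synthetase genes are textbook targets of ATF4, the transcription factor of the amino acid and mitochondrial stress response, which binds elements shared with C/EBP proteins. The mitochondrial synthetase genes are not counted among its classical targets.

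The promoters were read first, because the letters before the start can be set beside the classes. A RefSeq table (build GRCm38.p6) held a start for 27 of the 37 members, 13 cytosolic and 14 mitochondrial. The 250 bases before each start were searched on both strands for TGATGNAA, the core of the C/EBP and ATF4 type of element. It was present before 3 of the 13 cytosolic genes (23.1%, with Gars and Tars among them) and before 0 of the 14 mitochondrial genes, against 3.45% of all 32851 promoters in that table. In the third of these cytosolic genes the match lies in an annotated exon of the gene, so 2 of 13 (15.4%) had one outside such an exon, and the share of all promoters was not split in this way. A motif of the type bound by NRF1 (given by name only) was searched on both strands too. It was present before Kars and Tars among the cytosolic genes (15.4%), before 0 mitochondrial genes and in 3.74% of all promoters. The motifs do not overlap each other in Tars. The sequences before Gars and Tars are printed 5′ to 3′ on the gene's strand from the RefSeq table. The motif is in capitals and is read there on the opposite strand. Distances to the start are counted from the first capital. The Tars sequence stops at the end of the motif, where an annotated exon of the gene begins, so 243 of its 250 bases are printed.
Gars (chr6:55037751-55038000, plus strand, 30 bases before the start): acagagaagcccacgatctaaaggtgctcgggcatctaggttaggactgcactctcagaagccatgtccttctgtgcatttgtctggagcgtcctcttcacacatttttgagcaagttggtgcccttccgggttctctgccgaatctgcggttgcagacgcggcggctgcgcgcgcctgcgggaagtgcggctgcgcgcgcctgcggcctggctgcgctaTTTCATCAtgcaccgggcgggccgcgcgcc
Tars (chr15:11399666-11399908, minus strand, 15 bases before the start): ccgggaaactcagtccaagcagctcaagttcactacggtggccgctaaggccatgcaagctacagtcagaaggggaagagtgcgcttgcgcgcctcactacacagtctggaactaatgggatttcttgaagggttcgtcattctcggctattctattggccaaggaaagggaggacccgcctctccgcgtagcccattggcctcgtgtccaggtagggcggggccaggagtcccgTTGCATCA
A match describes letters in this window and is not a measured binding site, and the ATF4-linked gene list used further on came from the same background knowledge as the motif.

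Levels are CPM, counts per 1e+06 counts, after TMM scaling, an edgeR normalization for library composition. Total counts ran from 13359583 to 21938003 per library, and the members took 0.287% to 0.572% of them. The progenitor genes Kit, whose product the sort used (118 to 200 CPM), Gata2 (141 to 330) and Myb (204 to 338) were present in all 12 libraries. WT MET 2 and RH VEH 2 stood apart, with 33.3% and 40.8% of their counts from the mitochondrial genome against 1.57% to 4.32% in the other 10. In these 2 libraries 1 CPM stood for 9.86 and 8.37 reads, against 17 to 24.8 elsewhere. The libraries also fall into 2 sets: WT VEH 1 and 2, WT MET 1, RH VEH 1, and RH MET 1 and 2 are held in both deposited tables (round 1), and the other 6 only in the larger table (round 2). They were matched by identical counts for every gene, and RH VEH 1 of the larger table bears the number 2 in the smaller one. The labels give the rounds no date or protocol. Fold changes, their standard errors and p-values come from a fit with a term for the rounds, except where another fit is named. Levels in CPM, their sums and ratios, and counts of groups that do not overlap are not adjusted for the rounds. Read counts per member ran from 52 (Pars2) to 15267 (Vars), so counting error was small for all but the lowest mitochondrial genes.

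The cytosolic genes were the more abundant class. Compared per kilobase of transcript, the highest were Hars (histidine) with a mean of 132 CPM per kilobase over 12 libraries, Vars (valine) with 116 and Nars (asparagine) with 75.6. Gars (glycine) followed with 74, and Kars (lysine) stood at 55.6. The lowest cytosolic levels per kilobase were 10.8 for Tarsl2, 12.6 for Cars (cysteine) and 19.4 for Yars (tyrosine). Wars, the tryptophan enzyme and an interferon-inducible gene, had 23.7. Farsb and Farsa, which encode both subunits of the cytosolic phenylalanine enzyme, stood at 47.1 and 33.9.

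Among the mitochondrial enzymes Lars2 (leucine) had the highest mean level per kilobase at 26, followed by Iars2 (isoleucine) at 19.4 and Rars2 (arginine) at 12.2. Pars2 (proline) at 1.77, Wars2 at 2.14 and Mars2 (methionine) at 2.53 were the lowest. In 15 of 16 pairs of a cytosolic and a mitochondrial gene for the same amino acid, the cytosolic gene was higher per kilobase in 12 of 12 libraries. The median ratio of such a pair ran from 1.46 for Iars over Iars2 to 28.1 for Nars over Nars2. The exception was Lars over Lars2, with a median ratio of 1.41, a range of 0.56 to 3.08 and the cytosolic gene higher in 9 of 12 libraries. The plot of levels per kilobase shows the same gap and the wide scatter of Lars2. Gene lengths are those deposited with the counts and join all annotated exons, so a gene with long minor transcripts has its level per kilobase understated.

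**Figure D1:**
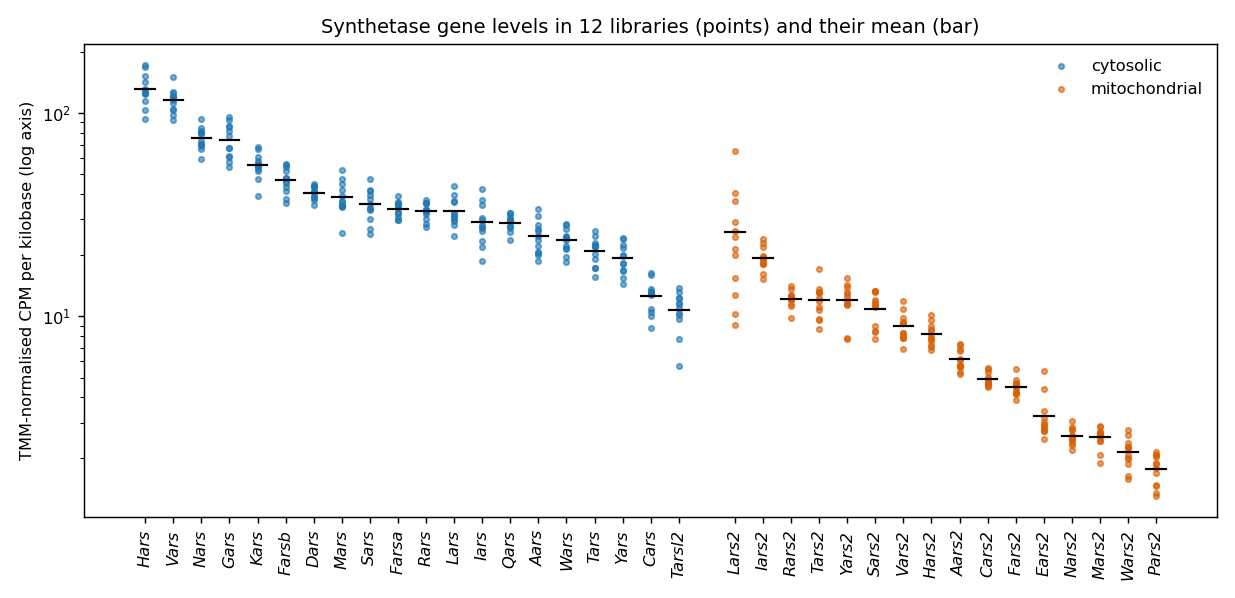
Level of each synthetase gene shown in TMM-normalised CPM per kilobase (log axis), ordered by class and mean, with 1 point per library (12) and a bar at the mean. Cytosolic means run from 10.8 (Tarsl2) to 132 (Hars) and mitochondrial means from 1.77 (Pars2) to 26 (Lars2), whose points spread more widely than those of any other member.

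Summed over the class, the cytosolic genes reached 3820 ± 671 CPM (SD, n = 3) under vehicle and 3420 ± 217 under metformin in WT cells, and 3580 ± 331 and 3770 ± 465 in RH cells. The group ranges overlap, from 3090 to 4410 CPM in WT VEH alone. These sums and the ratios that follow carry no round term. WT VEH and RH MET hold more libraries of round 1 than WT MET and RH VEH. The cytosolic sums differ by round, as given further below, so group and round are mixed in these means. The mitochondrial class without Lars2 summed to 666 ± 54.9 CPM (SD, n = 3) and 644 ± 15.3 in WT cells, vehicle first, and to 657 ± 50 and 701 ± 61.3 in RH cells. The ratio of the 2 sums was 5.71 ± 0.606 and 5.31 ± 0.327 in WT cells and 5.45 ± 0.43 and 5.36 ± 0.234 in RH cells, again with vehicle first. Without Lars2, the ranges of this ratio overlapped between the groups, at 5.12 to 6.33 in WT VEH and 5.03 to 5.67 in WT MET. They were 5.1 to 5.93 in RH VEH and 5.21 to 5.63 in RH MET. With Lars2 counted, the ratio was 4.47 ± 0.208, 3.42 ± 0.307, 4.09 ± 0.396 and 3.66 ± 0.986 in the same order. In that form WT VEH (4.32 to 4.71) and WT MET (3.16 to 3.76) did not overlap, while RH VEH (3.68 to 4.47) and RH MET (2.62 to 4.58) did. Lars2 alone made up 14.4% to 50.1% of the mitochondrial sum.

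No synthetase gene passed the threshold in any of the 7 comparisons of genotype and treatment (edgeR quasi-likelihood test, Benjamini-Hochberg adjusted p under 0.05 over 15003 genes). DESeq2 called 0 members in these 7 comparisons too. Without the filter on low counts, edgeR called Lars2 for metformin in WT and for metformin over both genotypes. That fit called far more genes in each of the 7 comparisons. Log2 fold changes below come with their standard error (SE), and positive values are higher in the group named first. Where the groups share control libraries, their fold changes are not independent of each other.

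RH VEH against WT VEH gives the genotype difference without drug. Cytosolic genes were evenly split, with 10 higher and 10 lower (median log2 fold change 0.02). Of the mitochondrial genes 12 were higher and 5 lower, with a median of 0.03, beside a median of 0 over all tested genes. At an unadjusted p under 0.05 there were 0 members, against 2.03% of all tested genes (1.11% higher, 0.913% lower), and 0% of all genes passed after adjustment. None of the members parted the groups without overlap, where 2.71% of tested genes were higher and 3.23% lower in that way. The split of the classes moved with single libraries: 6 cytosolic and 7 mitochondrial genes were higher without WT VEH 3, and 8 and 7 without RH VEH 2. Of the granulocyte marker genes 9 of 10 were lower in RH VEH (median −0.64) and all 5 tested megakaryocyte genes higher (median 0.43). The part of these cells in the synthetase values was not tested.

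The cytosolic genes of smallest p were Hars (0.24 ± 0.183), Yars (0.20 ± 0.164), Tars (threonine, 0.20 ± 0.174), Kars (−0.16 ± 0.14), Iars (isoleucine, −0.18 ± 0.179) and Mars (methionine, −0.17 ± 0.17). The mitochondrial ones were Iars2 (−0.16 ± 0.131), Tars2 (0.27 ± 0.22), Ears2 (glutamate, 0.28 ± 0.275) and Lars2 (0.59 ± 0.596). Every one of these 10 values was less than 1.5 times its SE, and each had an adjusted p of 0.977 by edgeR. Tars2 was at 119 CPM in RH VEH 2, the library with 40.8% mitochondrial counts, and at 60.4 to 91.2 in the other 5 libraries of this comparison. Without that library its value was −0.01.

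RH MET against WT MET gives the genotype difference under the drug. Here Iars and Lars, the cytosolic isoleucine and leucine enzymes, lay above WT MET in all 3 RH MET libraries. Both enzymes belong to the multisynthetase complex and are class I enzymes for branched-chain amino acids. Among all members 25 were higher and 12 lower, with medians of 0.04 for the cytosolic (14 higher, 6 lower) and 0.14 for the mitochondrial genes (11 higher, 6 lower), beside −0.02 over all tested genes.

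Iars (ENSMUSG00000037851, chromosome 13 at 49682100 to 49734267, mm10) stood at 145, 99.1 and 124 CPM in WT MET and at 224, 187 and 149 CPM in RH MET. Its levels were 144, 196 and 157 CPM in WT VEH and 138, 116 and 160 CPM in RH VEH. Under vehicle the genotypes overlapped, while under metformin every RH library was above every WT library. The log2 fold change under metformin was 0.52 ± 0.179, with an unadjusted p of 0.0127 and an adjusted p of 0.738 (edgeR quasi-likelihood, Benjamini-Hochberg). Iars holds 767 shared 31-base words with the pseudogene Gm4849, and the handling of reads with several matching places is not stated in those sources.

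Lars (ENSMUSG00000024493, chromosome 18 at 42202350 to 42262122) stood at 119, 95.4 and 113 CPM in WT MET and at 169, 141 and 124 CPM in RH MET. In WT VEH it was at 153, 143 and 109 CPM, and in RH VEH at 123, 115 and 119. The log2 fold change under metformin was 0.32 ± 0.132, with an unadjusted p of 0.0314 and an adjusted p of 0.738 by edgeR. The lowest Lars and Iars values of all 12 libraries were those of WT MET 2, the library with 33.3% mitochondrial counts. Without it and RH VEH 2, Iars was at 0.45 ± 0.178 (unadjusted p = 0.0264) and Lars at 0.28 ± 0.138 (unadjusted p = 0.0633; edgeR).

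These 2 members of 37 at an unadjusted p under 0.05 stand beside 5.78% of all tested genes (2.19% higher, 3.59% lower). Without overlap, 7.97% of tested genes were higher and 8.94% lower, against 2 members higher and 0 lower. With both directions counted, neither share of the members is above that of all tested genes. After adjustment 1 gene of the table (0.00667%), the peptide transporter gene Slc15a2, passed. The count of 2 members rested on single libraries: it was 0 without RH MET 1 (2.56% of tested genes), where Iars was at 0.43 (unadjusted p = 0.0508) and Lars at 0.26 (unadjusted p = 0.106, edgeR). It was 1 without RH MET 3 (5.66% of tested genes), WT MET 1 (5.03%) or WT MET 2 (2.99%), each time Iars. Without WT MET 3 it was 6 (9.09%). Eprs, their partner in the complex, had a value of the same sign, at 266, 203 and 234 CPM in WT MET and 361, 300 and 274 in RH MET. Its log2 fold change was 0.35 ± 0.14 (unadjusted p = 0.0276, adjusted p = 0.738, edgeR). Eprs was also without overlap, and 9 of the 11 genes of the multisynthetase complex list were higher with a median of 0.09. In that list 3 genes lay above without overlap and 1 lay below, and its lowest log2 fold change was −0.31. The other members of smallest p were Tarsl2 (0.40 ± 0.24), Mars (0.27 ± 0.169), Nars (0.16 ± 0.116) and Wars (0.13 ± 0.134) in the cytosolic class. In the mitochondrial class they were Iars2 (0.18 ± 0.131), Rars2 (0.17 ± 0.142), Yars2 (0.24 ± 0.207) and Hars2 (0.18 ± 0.164). None of these 8 passed the test.

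Marker genes of other cells moved in the same comparison: all 10 granulocyte genes were higher in RH MET (median 0.95) and all 8 T and NK cell genes lower (median −1.09). All 5 tested megakaryocyte genes were lower as well (median −0.70, 3 of them without overlap), as were all 7 erythroid genes (median −0.20, 2 without overlap). Summed granulocyte levels were 3400, 1410 and 5510 CPM in WT MET and 4320, 5040 and 6720 in RH MET. For T and NK cell genes the sums were 83.6, 96.5 and 110 CPM against 47.4, 56 and 92.8, and for megakaryocyte genes 940, 1790 and 685 against 684, 705 and 673. Erythroid genes summed to 7120, 7270 and 9450 CPM against 5110, 5120 and 7210. The part of these cells in the synthetase values was not tested.

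**Figure D2:**
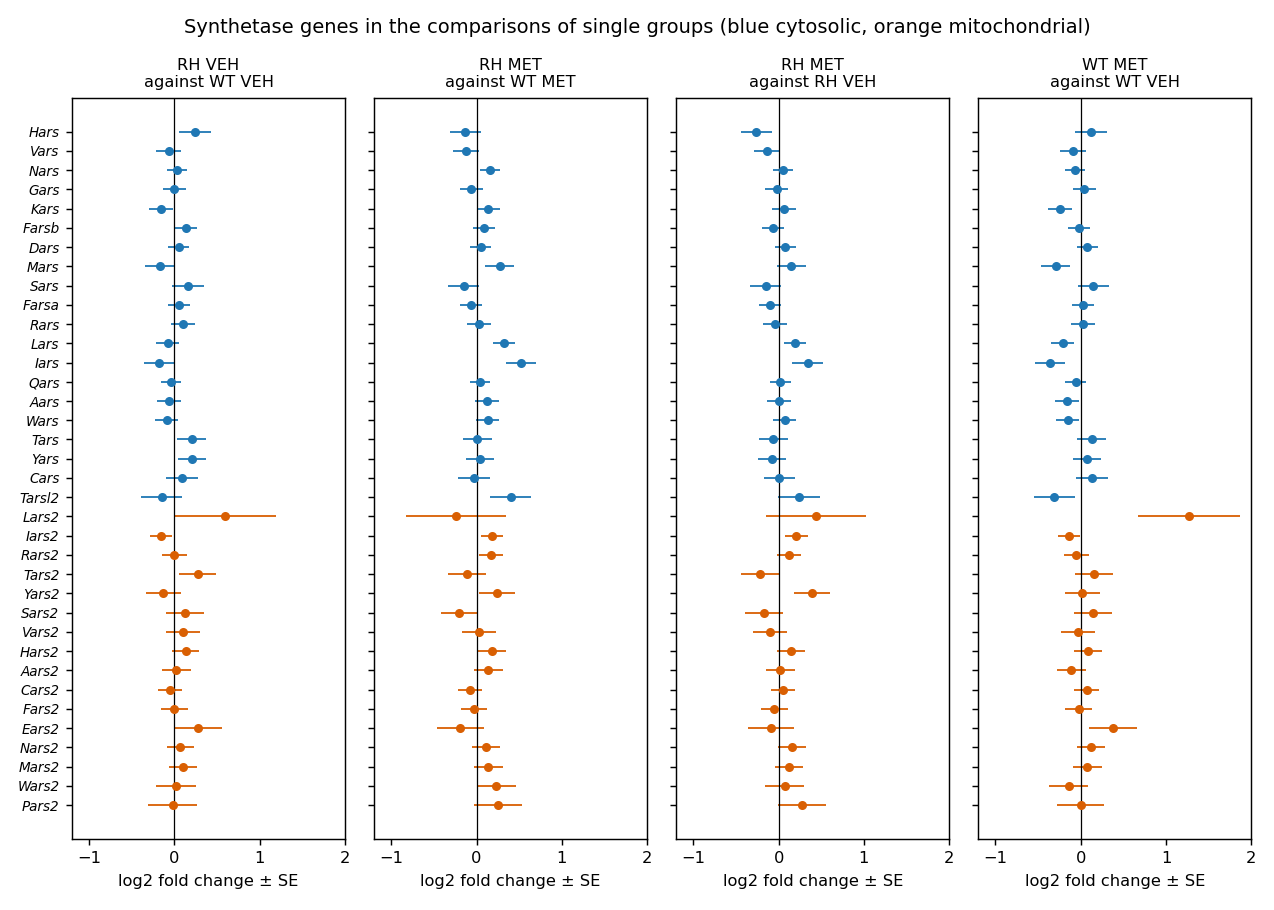
Log2 fold change with SE (horizontal axis) of the synthetase genes shown in the 4 comparisons of single groups, cytosolic in blue and mitochondrial in orange, from the edgeR fit. Most bars cross 0. Iars (0.52) and Lars (0.32) lie to the right in RH MET against WT MET, and Lars2 (1.27 ± 0.602) has the longest bar in WT MET against WT VEH.

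Metformin was then compared with vehicle inside each genotype. In RH, 11 cytosolic genes were higher and 9 lower (median 0.01), and 11 mitochondrial genes higher and 6 lower (median 0.07), beside −0.01 over all tested genes. No member had an unadjusted p under 0.05, where 2.43% of tested genes did (0.906% higher, 1.52% lower) and 0% passed after adjustment. Yars2, Iars2, Nars2 and Lars were higher in all 3 RH MET libraries than in any RH VEH library, that is 4 of 37, against 4.11% of tested genes higher in this way and 2.81% lower. Marker genes moved in the same comparison: all 10 granulocyte genes were higher (median 1.21, 6 without overlap), all 7 monocyte genes were higher (median 0.29), and all 8 T and NK cell genes were lower (median −1.15, 4 without overlap). Granulocyte sums were 3640, 1490 and 4780 CPM in RH VEH, and T and NK cell sums 96.6, 70.4 and 103, beside the RH MET sums given above. The part of these cells in the synthetase values was not tested. Leaving out RH VEH 3 gave 3 members at an unadjusted p under 0.05 (13% of tested genes), and leaving out WT MET 2 gave 1 (4.28%).

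Yars2 (ENSMUSG00000022792, the mitochondrial tyrosine enzyme, chromosome 16 at 16302965 to 16309640) stood at 37.3, 24.7 and 36 CPM in RH VEH and 48.7, 44.9 and 41.3 in RH MET. The low value is that of RH VEH 2, but the other 2 RH VEH libraries were also below all of RH MET. Its log2 fold change was 0.39 ± 0.207 (edgeR, adjusted p = 0.932), and 0.28 ± 0.133 without the 2 libraries of high mitochondrial share. Iars2 was at 161, 144 and 163 CPM in RH VEH and 204, 194 and 170 in RH MET (0.21 ± 0.131), which did not pass the test. For Nars2 the values were 17.4, 17.7 and 17.7 CPM against 19.5, 19.9 and 19.2, which is a narrow but complete parting (0.16 ± 0.162). Lars was at 0.19 ± 0.132, Iars at 0.34 ± 0.181, Hars at −0.26 ± 0.181, Tarsl2 at 0.24 ± 0.241, Vars at −0.14 ± 0.15 and Mars at 0.15 ± 0.169. Tars2 had −0.22 ± 0.221, which became 0.05 without RH VEH 2.

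In WT, metformin left the cytosolic genes at a median of −0.04 (9 higher, 11 lower) and the mitochondrial genes at 0.02 (9 higher, 8 lower), beside 0.01 over all tested genes. The even split of the cytosolic genes depended on single libraries: 1 of 20 was higher without WT VEH 3 (median −0.13), 5 without WT MET 2 (median −0.08) and 3 without the round term (median −0.15). No member had an unadjusted p under 0.05, against 4.03% of tested genes (2.1% higher, 1.93% lower), and 0% of genes passed after adjustment. Aars2, the mitochondrial alanine enzyme, was the 1 member whose groups did not overlap, at 33, 27.5 and 29.2 CPM in WT VEH and 27.1, 27.3 and 26.8 in WT MET. It was chosen for naming after its values were seen, its log2 fold change was −0.11 ± 0.168, and 4.4% of tested genes were lower in this way (4.98% higher). Iars had −0.36 ± 0.178 (unadjusted p = 0.0628), Kars −0.24 ± 0.14, Mars −0.29 ± 0.169, Lars −0.21 ± 0.132, Tarsl2 −0.31 ± 0.24 and Aars −0.16 ± 0.142, all with adjusted p = 0.876 by edgeR. The largest mitochondrial values were those of Lars2 (1.27 ± 0.602) and Ears2 (0.38 ± 0.278); Iars2 was at −0.14 ± 0.131. Ears2 stood at 27.8 CPM in WT MET 2 and at 12.8 to 15 in the other 5 libraries of this comparison, and its value was 0.04 ± 0.161 without the 2 libraries of high mitochondrial share. Leaving out WT MET 3 gave 4 members at an unadjusted p under 0.05 (6.91% of tested genes), and leaving out WT VEH 1 gave 2 (6.9%). The 10 granulocyte genes were all lower under metformin in WT (median −0.44) and the 5 tested megakaryocyte genes all higher (median 0.80, 3 without overlap), and their part in the synthetase values was not tested.

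The interaction asks whether metformin acted differently on the 2 genotypes. Iars had the largest positive value, at a difference of log2 fold changes of 0.70 ± 0.262 (unadjusted p = 0.0193, adjusted p = 0.648, edgeR). It was the only member at an unadjusted p under 0.05, against 6.21% of all tested genes (2.45% higher, 3.77% lower), and 0% of genes passed after adjustment. This count moved with the libraries and the fit. It was 0 without RH VEH 1 (2.46% of tested genes), where Iars was at 0.57 (unadjusted p = 0.0896, edgeR). It was 2 without RH MET 2 (3.6%), 3 without RH VEH 3 (16.9%) and 6 without WT MET 3 (8.72%). Without WT VEH 3 the 1 member was Lars, not Iars (1.73% of tested genes). Without the round term there were 4 members (8.71% of tested genes), among them Iars. Lars (0.40 ± 0.194), Mars (0.43 ± 0.249), Tarsl2 (0.55 ± 0.351), Kars (0.30 ± 0.203) and Hars (−0.37 ± 0.268) followed among the cytosolic genes. The mitochondrial genes of smallest p were Iars2 (0.35 ± 0.191), Yars2 (0.37 ± 0.299), Tars2 (−0.38 ± 0.324) and Ears2 (−0.47 ± 0.406). The lowest value was that of Lars2 at −0.83 ± 0.876. Without the 2 libraries of high mitochondrial share, Iars was at 0.57 ± 0.254 (unadjusted p = 0.0442), Ears2 at 0.02 ± 0.228 and Tarsl2 at 0.27 ± 0.235 (edgeR).

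Within single rounds the interaction of Iars was 0.81 in round 1 and 0.65 in round 2, as values with no test. For Lars it was 0.66 and 0.20. The class medians of the interaction were −0.02 for cytosolic and 0.04 for mitochondrial genes, beside −0.02 over all tested genes. Of the cytosolic genes 9 were positive, against 17 without the round term or without both libraries of high mitochondrial share, and 15 without WT VEH 3. Round 1 holds WT VEH 1 and 2 and RH MET 1 and 2, but only WT MET 1 and RH VEH 1 of the other groups. Without the round term, the interaction therefore cannot be fully told apart from the difference between the rounds. All 10 granulocyte genes (median 1.58) and all 7 monocyte genes (0.54) were positive, and 7 of 8 T and NK cell genes (−1.45) and all 5 tested megakaryocyte genes (−1.13) negative. Their part in the synthetase values was not tested.

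Averaged over both treatments, 30 of 37 members were higher in RH and 7 lower, with a median of 0.07 beside 0 over all tested genes. The values ran from −0.09 to 0.17, and none had an unadjusted p under 0.05, against 2.65% of tested genes (0.833% higher, 1.81% lower), and 0.00667% passed after adjustment. None parted the genotypes without overlap over 6 libraries each, where 0.02% of tested genes were higher and 0.0733% lower. The count of 30 members higher stood beside 49.7% of all tested genes. It fell to 22 without RH VEH 2 and to 23 without WT VEH 3 or RH MET 1. Without WT VEH 1 it was 34. Averaged over both genotypes, metformin gave 14 members higher and 23 lower, with a median of −0.01; 23 were higher without WT VEH 1 and 22 without WT MET 1. Lars2 was again the highest at 0.85 ± 0.402, and the other 36 stayed between −0.12 and 0.21. No member had an unadjusted p under 0.05 for metformin either, against 1.63% of tested genes (0.966% higher, 0.66% lower), with 0% after adjustment. None parted the treatments without overlap, where 0.0667% of tested genes were higher and 0.00667% lower.

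Between the rounds the cytosolic synthetases differed in 1 direction. This comparison was added after the libraries were seen to fall apart in that way. All 20 cytosolic genes were lower in round 2, with a median log2 fold change of −0.26, while 11 mitochondrial genes were lower and 6 higher, with a median of −0.10. Over all tested genes the median was 0.01. At an unadjusted p under 0.05 there were 11 cytosolic genes, all lower, and 0 mitochondrial genes, against 14.4% of tested genes (7.53% higher, 6.83% lower). The count of members fell to 4 without WT VEH 3 (7.21% of tested genes) and to 7 without RH MET 3 (10.1%), all cytosolic. Without the 2 libraries of high mitochondrial share 1 of the 20 cytosolic genes was higher. After adjustment 0 members passed and 7 genes of the table (0.0467%) did.

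The glycine enzyme Gars (ENSMUSG00000029777, chromosome 6 at 55038007 to 55079500) showed it most. It stood at 297 and 270 CPM in WT VEH 1 and 2, 267 in WT MET 1, 254 in RH VEH 1, and 287 and 241 in RH MET 1 and 2. In round 2 it was at 170 in WT VEH 3, 211 and 189 in WT MET 2 and 3, 211 and 180 in RH VEH 2 and 3, and 191 in RH MET 3. All 6 libraries of round 1 were above all 6 of round 2, in every group. The log2 fold change was −0.50 ± 0.0988, with an adjusted p of 0.0877 by edgeR.

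Aars, the alanine enzyme (ENSMUSG00000031960, chromosome 8 at 111033144 to 111057664), ran from 232 to 313 CPM in round 1, with a median of 256, and from 173 to 220 in round 2, with a median of 192. Its log2 fold change was −0.41 ± 0.104 (edgeR, adjusted p = 0.146). For Farsb the ranges were 126 to 148 CPM against 94.2 to 120 (−0.34 ± 0.0941). Nars ran from 208 to 247 against 156 to 191 CPM (−0.27 ± 0.0844), and Kars from 248 to 304 against 174 to 245 (−0.24 ± 0.101). These 5 of 20 cytosolic genes did not overlap between the rounds, where 1.75% of tested genes were lower and 1.04% higher in this way. Sars (serine, −0.36 ± 0.135), Cars (−0.36 ± 0.138) and Yars (−0.35 ± 0.12) were as low but overlapped. At the other end, Dars (aspartate) differed little, at a median of 179 CPM in round 1 and 172 in round 2 (−0.04 ± 0.0908).

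Of the mitochondrial genes Iars2 (−0.19 ± 0.0956), Sars2 (−0.30 ± 0.163), Lars2 (−0.80 ± 0.439) and Wars2 (0.22 ± 0.171) had the smallest p. Their levels overlapped between the rounds. As a class sum, the cytosolic genes had 3990 ± 277 CPM (SD, 6 libraries) in round 1 and 3300 ± 171 in round 2, with ranges of 3670 to 4410 and 3090 to 3610 that do not overlap. The mitochondrial genes without Lars2 had 695 ± 38.7 against 639 ± 38.6, with overlapping ranges of 647 to 749 and 603 to 707. The median deviation of the cytosolic genes from their own means was 0.03 to 0.30 in the libraries of round 1 and −0.19 to −0.05 in those of round 2.

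**Figure D3:**
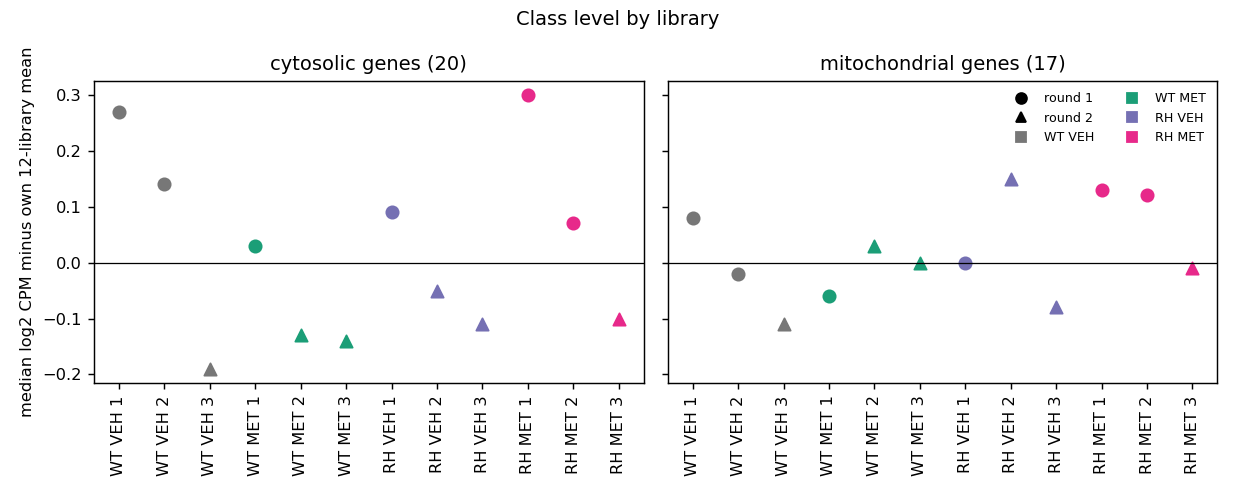
Median over the class of log2 CPM minus each gene's own 12-library mean (vertical axis), for each library, with circles for round 1, triangles for round 2 and colours for the groups. In the left panel (cytosolic) the circles lie at 0.03 to 0.30 and the triangles at −0.19 to −0.05, and in the right panel (mitochondrial) they mix.

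**Figure D4:**
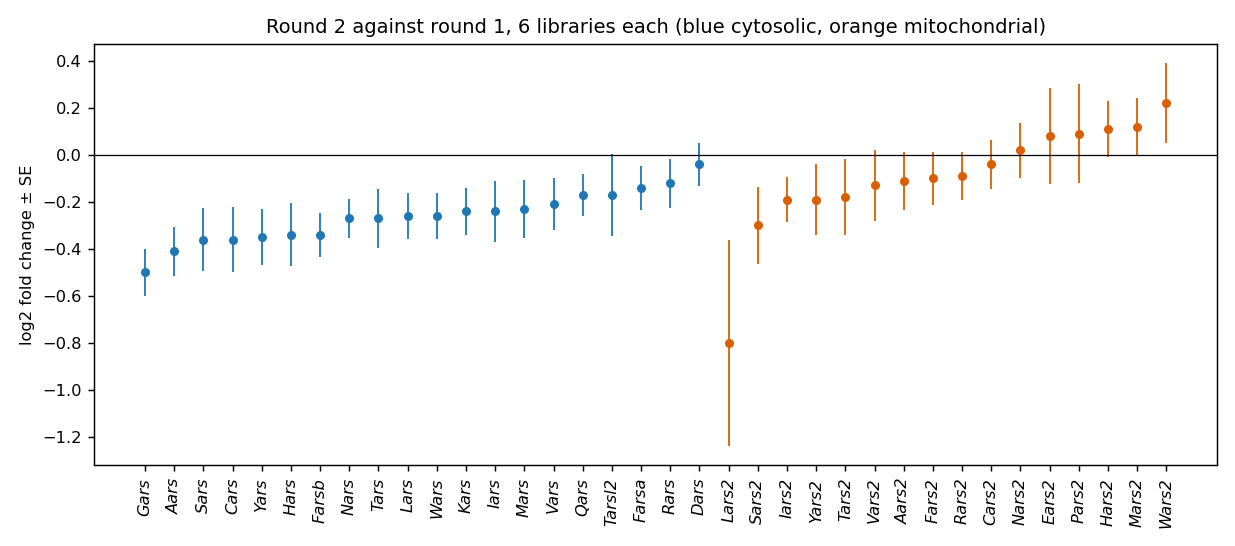
Log2 fold change with SE of round 2 against round 1 (6 libraries each) for the synthetase genes shown, cytosolic in blue and mitochondrial in orange. All 20 cytosolic values are below 0, down to −0.50 for Gars, and 6 mitochondrial values are above 0.

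The call count in this comparison depended on the 2 libraries of high mitochondrial share, both of round 2. Without them 1593 genes passed (10.4%, with 6.38% higher and 4.01% lower), among them 10 synthetase genes, all lower. These were Hars, Gars, Aars, Sars, Tars, Farsb, Yars and Cars, with Tars2 and Sars2 of the mitochondrial class. DESeq2 on all 12 libraries called 399 genes (2.66%, with 1.37% higher and 1.29% lower), among them Gars, Aars and Farsb. Leaving out RH VEH 2 alone gave 198 genes, among them Gars (edgeR, adjusted p = 0.0351).

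Marker sums also differed by round in the 10 libraries without a high mitochondrial share. Granulocyte genes summed to 3330 to 5040 CPM in round 1 and 4780 to 7140 in round 2, stromal and endothelial genes to 64.2 to 193 against 318 to 526, and monocyte genes to 276 to 374 against 451 to 550. The stem and progenitor genes, markers of the sorted population itself, summed to 668 to 917 CPM in round 1 and 926 to 1150 in round 2. Over all 12 libraries 9 of 10 of these genes were higher in round 2 (median 0.19, 3 at an unadjusted p under 0.05), as were all 7 B cell genes (median 0.67) and all 8 T and NK cell genes (median 0.38). In WT MET 2 and RH VEH 2 the granulocyte sums were 1410 and 1490 CPM and the monocyte sums 204 and 149. These were lower still than in round 1. The cytosolic synthetases summed to 3280 CPM in WT MET 2 and 3610 in RH VEH 2. Their sums were 3090 to 3310 CPM in the rest of round 2, and the lowest of round 1 was 3670. Stromal sums in these 2 libraries were 85 and 59.5 CPM, and stem and progenitor sums 968 and 858. The part of these cells in the synthetase values was not tested.

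The lists of related genes can be set beside the members in the comparison by round. Of the 12 cytosolic synthetase genes linked to ATF4, Eprs included, 12 were lower with a median of −0.27 and 8 at an unadjusted p under 0.05. The 9 other cytosolic genes were all lower too, with a median of −0.17 and 3 at that level. Among the free enzymes 13 of 13 were lower (median −0.34, 9 at that level), and in the multisynthetase complex 11 of 11 (median −0.20, 3 at that level). ATF4 targets that are not synthetases were lower in 19 of 27 (median −0.22), with 10 lower and 1 higher at that level. They were led by the amino acid transporter gene Slc7a5 (−0.48 ± 0.0866, adjusted p = 0.0696, edgeR) and the pseudokinase gene Trib3 (−1.28 ± 0.268, adjusted p = 0.102, edgeR).

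Asns, which makes asparagine, had −0.44 ± 0.126, the mitochondrial folate enzyme gene Mthfd2 −0.64 ± 0.156 and the serine-cleaving enzyme gene Shmt2 −0.41 ± 0.102. Mitochondrial translation factors were lower in 8 of 9 (median −0.20), with Gfm1 at −0.37 ± 0.0937 and Tufm at −0.33 ± 0.0902, both elongation factors. Cytosolic elongation factors were lower in 7 of 7 (median −0.19), with Eef1g at −0.27 ± 0.104 and Eif5a at −0.30 ± 0.127. Enzymes that process mitochondrial tRNA were lower in 6 of 11 (median −0.03; Mto1 −0.29 ± 0.108, Elac2 −0.21 ± 0.1). Synthetase cofactors and editing enzymes were lower in 11 of 13 (median −0.06; Prorsd1 −0.29 ± 0.141, Dtd1 −0.19 ± 0.122). For tRNA ligation and cytosolic maturation it was 9 of 15 (median −0.03; Tsen34 0.51 ± 0.172, Rpp30 −0.22 ± 0.139). Each of these genes had an adjusted p above 0.05 by edgeR.

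In the comparisons of genotype and drug the same lists gave no call. The ATF4-linked synthetases had medians of −0.03 in RH VEH against WT VEH, 0.13 in RH MET against WT MET, 0.03 for metformin in RH and −0.11 in WT. ATF4 targets other than synthetases had −0.02, −0.03, 0.04 and 0.02 in the same order. The translation phosphatase regulator gene Ppp1r15a was at −0.85 ± 0.204 in RH MET against WT MET (unadjusted p = 0.00115, adjusted p = 0.738, edgeR). Nupr1, a stress-induced gene, was at 0.98 ± 0.343 for metformin in WT (adjusted p = 0.876, edgeR), where its groups did not overlap. For metformin over both genotypes 19 of 27 such targets were higher (70.4%, median 0.04), against 47.7% of all tested genes, with 0 higher and 1 lower at an unadjusted p under 0.05. The ATF4-linked synthetases were higher in 3 of 12 there (25%, median −0.01).

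The scaffold gene Eef1e1 had 0.40 ± 0.156 in RH VEH against WT VEH (unadjusted p = 0.024, edgeR), opposite in sign to Iars and Lars. Cofactor and editing genes were higher in 11 of 13 in that comparison, with a median of 0.27 and their interaction median was −0.33 (Dtd2 −0.69 ± 0.36). The RNase P and maturation genes Rpp14 (0.35 ± 0.15, RH VEH against WT VEH) and Rpp30 (−0.62 ± 0.277, interaction) led their list. Eef1b2 (−1.06 ± 0.402) and Tsfm (−1.14 ± 0.537), exchange factors of the cytosolic and mitochondrial elongation cycle, had low interaction values, as did the tRNA modifier gene Trit1 (−1.12 ± 0.691). Further values of small p were Elac2 in RH MET against WT MET (0.32 ± 0.136), and Eef2 (−0.23 ± 0.138) and Tufm (−0.20 ± 0.124) for metformin in WT. All of these genes had adjusted p of 0.648 or more by edgeR.

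Lars2, the mitochondrial leucine enzyme (ENSMUSG00000035202, chromosome 9 at 123366927 to 123462666), varied far more than any other member. Its levels were 324, 141 and 101 CPM in WT VEH, 447, 412 and 222 in WT MET, 291, 274 and 114 in RH VEH, and 172, 725 and 237 in RH MET. The highest library stood 7.16 times above the lowest (RH MET 2 over WT VEH 3), which is wider than the difference between any 2 group means. The next widest ranges were 2.43-fold for Tarsl2 and 2.26-fold for Iars. The SD of Lars2 inside groups was 0.838 on the log2 scale, at percentile 99.2 of 619 genes of like level. For metformin in WT its log2 fold change was 1.27 ± 0.602 (unadjusted p = 0.0655, adjusted p = 0.876, edgeR), with groups that overlap. Fitted without the filter on low counts, edgeR called it at 1.21 with an adjusted p of 2.02e-08. That unfiltered fit also called far more genes in this comparison, as counted in the closing section, where the filtered fit called 0 of 15003. Without the 2 libraries of high mitochondrial share the value was 1.01 ± 0.638.

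By the order of its levels, the gene most like Lars2 among 14040 ranked genes was Gm23935, a short gene of the miRNA biotype on chromosome 16 (Spearman 0.99 over 12 libraries). It was followed by the pseudogene Gm46209 (0.93), AC165953.2 (0.92), Rwdd3 (0.92) and Usp21 (0.9). Gm23935 stood at 1090, 287 and 208 CPM in WT VEH, 1120, 1630 and 637 in WT MET, 830, 889 and 227 in RH VEH, and 423, 2470 and 664 in RH MET. Its highest and lowest libraries were those of Lars2, RH MET 2 and WT VEH 3. The noncoding gene Gm26917 on chromosome 17, chosen after its values were seen, had a Pearson r of 0.83 and a Spearman rho of 0.81 with Lars2 over 12 libraries, given as a description with no test because the gene was picked for following Lars2. Without the 2 libraries farthest from its median, WT MET 2 and RH MET 2, r was 0.75 and rho 0.72. Within round 1, r was 0.9 and rho 0.89, and within round 2, r was 0.88 and rho 1, over 6 libraries each. The annotated transcripts of Lars2 share 0 words of 31 bases with Gm23935 or Gm26917.

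**Figure D5:**
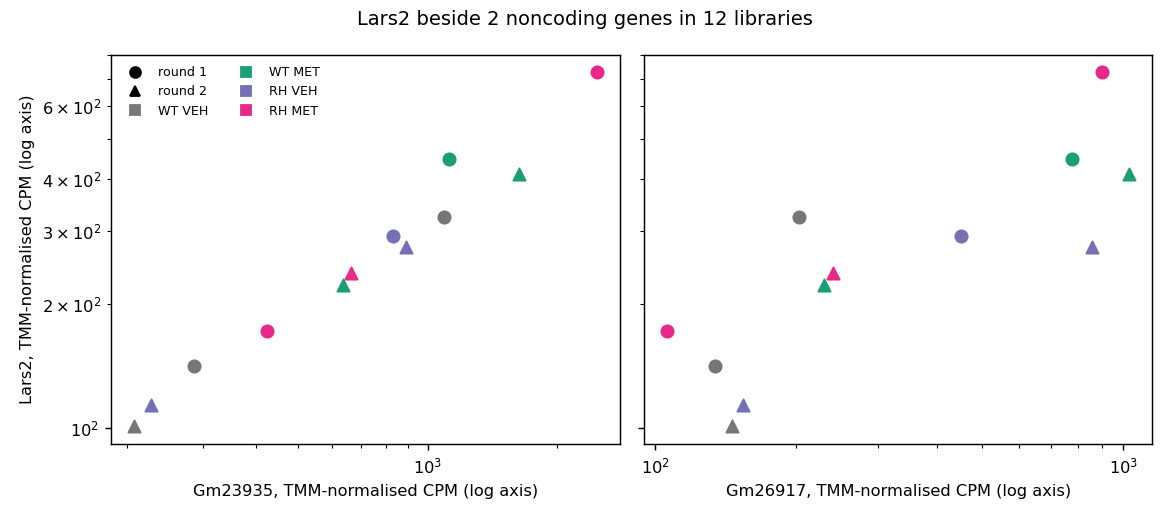
Level of Lars2 (vertical axis) against those of 2 noncoding genes (horizontal axes) in TMM-normalised CPM on log axes, with 1 point per library, colours for the groups, circles for round 1 and triangles for round 2. The points follow a rising line that crosses the groups, from WT VEH 3 (101 CPM of Lars2) to RH MET 2 (725 CPM).

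The other members differed in how far they varied for their level. The log2 SD inside groups, which holds the difference between the rounds, was 0.341 for Tarsl2 (percentile 87.6 of 2126 genes of like level), 0.316 for Gars (84.6 of 689), 0.307 for Cars (82.5 of 1992), 0.308 for Sars (82.3 of 922), 0.306 for Tars2 (82.3 of 1998) and 0.299 for Hars (81 of 585). At the quiet end, Nars2 had 0.117 (1.73 of 1792), Cars2 0.112 (4.2 of 2237) and Dars 0.115 (5.51 of 943). Fold ranges over 12 libraries were smallest for Cars2 (1.24) and Dars (1.28). WT MET 2 and RH VEH 2 together lay below the other 10 libraries for 5 of 20 cytosolic genes (Kars, Iars, Mars, Wars and Tarsl2) and above them for 0, where 12.2% of tested genes lay below and 13.1% above. Of the 17 mitochondrial genes 4 lay above (Tars2, Sars2, Ears2 and Wars2) and 2 below (Iars2 and Yars2). Tarsl2, for example, was at 38.3 and 52 CPM in these 2 libraries and at 65.3 to 93.2 elsewhere, and Ears2 at 27.8 and 22.5 against 12.8 to 17.6. The high share of mitochondrial messages did not go with a shift of the mitochondrial synthetases in 1 direction.

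Gene overlap limits some values, since the library kit named in the labels does not mark strand. Another gene overlaps 21 members, 18 of them on the other strand, and for 11 members the other gene was tested too. Hars and Hars2 share 198 bases on opposite strands, Mars and the stress gene Ddit3 share 68, and Iars2 and Rab3gap2 share 2034, so reads there cannot be assigned to a gene by strand. Aars and Exosc6 share 1326 bases on 1 strand, and Exosc6 is listed at 0.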

How the data were processed

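RNA was measured by bulk RNA sequencing in 12 libraries. The authors deposited unnormalized whole-number read counts for each gene, with gene lengths and coordinates. The submitters' processing notes name STAR 2.5, HTSeq 0.6.1 and the build mm10; strand and multi-mapping settings are not given in the sources used here. By column name, 5 of the 12 columns could be tied to 1 sample and 7 to a group only, so library numbers are those of the columns. By its identical counts, RH VEH 1 is also the library named RH VEH 2 in the smaller table and in the sample titles. Another deposited table with 8 columns repeats 6 of these, and its remaining 2 matched no sample and were not used.

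Counts were fitted with edgeR 4.0.16 (quasi-likelihood, robust, TMM, filterByExpr) in R 4.3.3, with 4 group means and a round term in the main design. The biological coefficient of variation was 0.256. Adjustment was by Benjamini-Hochberg over 15003 genes, per comparison, with calls at 0.05. The script was tested on simulated counts. Alternatives were DESeq2 1.42.0, other size factors, no filter, no round term, other sample sets, mitochondrial genes left out and class definitions. The 2 classes got no test of their own.

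The members, lists and tests were chosen with earlier results of these data known. Named members were the 6 cytosolic and 4 mitochondrial genes of smallest p in each comparison of single groups and the interaction, the 3 highest and 3 lowest per kilobase of each class, genes of special role, and 2 genes of smallest p from each list. The same was done for the rounds, an added comparison, with the transcripts of other genes named after their values were seen where so stated. Same-numbered libraries correlated over 0.1 in 13 of 18 pairs, short of every pair, and the labels tie no number to a litter, day or animal, so the numbers were not taken to pair the samples. A few items that these rules name are not reported here.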

Additional observations from a re-analysis of the deposited data

Results flagged for a closer look

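Within each round of 6 libraries, and across groups, a library was marked where its gap to the nearest other exceeded Dixon's critical share of the whole range. This was so for 5 of 78 group values (6.41%), and chance marks about 1 in 20. Among them, Vars in WT VEH 1 was the highest of round 1 at 842 CPM. Nars (247 CPM) and Rars2 (39 CPM) were highest in RH MET 1 of the same round. Mars (88.1 CPM) was lowest in WT MET 2 of round 2, the library with 33.3% mitochondrial counts.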

How the results depend on the processing

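Without the filter on low counts (27530 genes), edgeR called 175 genes in RH VEH against WT VEH, 362 in RH MET against WT MET, 229 in RH MET against RH VEH, 218 in WT MET against WT VEH, 431 in the interaction, 119 for genotype, 63 for metformin and 561 by round, where the filtered fit called 0, 1, 0, 0, 0, 1, 0 and 7. Members among them were Lars2 (metformin in WT, metformin over both genotypes, and by round) and Gars (by round). DESeq2 called 3, 22, 1 (WT MET against WT VEH), 17 (genotype) and 399 (round). Without both libraries of high mitochondrial share the counts were 3, 1 (metformin in RH), 1 (interaction), 3 (genotype) and 1593 (round). RH MET against WT MET fell to 0 genes without the round term or with only its 6 libraries.

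A replicate block on the column number, in place of the round, gave 2 genes in RH VEH against WT VEH and a cytosolic interaction median of 0.19. It changed no call of a member at an adjusted p under 0.05, but members at an unadjusted p under 0.05 rose from 1 to 8 in the interaction (13.1% of tested genes), from 0 to 5 for metformin in WT (7.81%), from 0 to 2 in RH (4.32%) and from 2 to 4 in RH MET against WT MET (9.6%). By number, 9 of 12 libraries correlated best with their own. The 6 pairs of number 3, whose libraries are all of round 2, correlated at 0.25 to 0.47.

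The cytosolic interaction median was 0.20 without the round term and 0.17 in round 1 alone. Mitochondrial medians were 0.15 in RH VEH against WT VEH and −0.07 in RH MET against WT MET in round 2, 0.18 for metformin in RH in round 1, −0.08 and 0.13 for metformin in WT in rounds 1 and 2, and 0.18 and −0.11 for the interaction. The cause was not tested.

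Leaving out 1 library at a time, called genes ranged from 0 to 2 in both genotype comparisons, 0 to 1 for metformin in RH and for the interaction, 0 to 0 for metformin in WT, 1 to 2 for genotype, 0 to 0 for metformin and 0 (without WT MET 1) to 198 (without RH VEH 2) by round. The mitochondrial median ranged from 0.02 to 0.17 for metformin in RH and from −0.03 to 0.16 in WT. The cytosolic median by round stayed between −0.30 and −0.21.

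Single members that changed sign were Tars2 (−0.01 in RH VEH against WT VEH and 0.05 for metformin in RH, each without RH VEH 2 and also without both such libraries; leaving out 1 library at a time gave −0.01 to 0.44 and −0.39 to 0.05), Hars2 (−0.07 in RH MET against WT MET, round 2) and Ears2 (−0.03 for metformin in WT, round 1; interaction 0.02 without both libraries and 0.05 in round 1). Mars came to 0 for metformin in RH in round 2, from 0.15. Low depth limits Pars2, with 52 reads in its lowest library.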
